A study of Mus musculus with 15 samples.

Results

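The transcriptome of the whole brain was compared between old and young mice that had food at all times (ad libitum, AL). The comparison took the 4 old AL and the 4 young AL mice, 8 of the 15 mice of the series, and every gene that passed edgeR's filter on low counts (filterByExpr), 15864 of the 43629 genes listed. All mice were male wildtype C57BL/6J, a standard inbred laboratory strain, and the labels give 3 months as the age of the young and 24 months as that of the old mice. The remaining 7 mice, 3 young and 4 old, were fed every other day (EOD) from the age of 2 months, and they entered the same fit, where they share in the filter on low counts and in the estimate of the spread between mice. One library was made per mouse. Because the tissue was the whole brain, more cells of a type and more RNA per cell cannot be told apart in any of the values that follow.

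Ageing of the brain is known to change the expression of many glial genes. Microglia, the resident phagocytes, take up debris, sense it through surface receptors that signal through the adaptor Tyrobp, and digest it in lysosomes. Astrocytes respond to injury and age by making intermediate filaments and secreted acute-phase proteins, oligodendrocytes maintain myelin, and the small pool of newborn neurons in the adult brain shrinks.

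The total of counts on genes ranged from 5198748 (old AL mouse 3) to 13610729 (young AL mouse 3) in AL mice. The library of young AL mouse 3 stood apart: it was the deepest, yet 17280 genes had at least 1 count, against 19054 to 20880 in the other 7 AL mice, and it correlated less well with the rest of the series (across genes, on the log2 scale), with a median of 0.9573, against 0.9801 to 0.9873. Results are therefore given with and without it, and a gene is called where edgeR's quasi-likelihood test gave a false discovery rate (FDR, Benjamini-Hochberg) under 0.1. Levels are given as CPM, the count scaled to the size of the library, which are not divided by gene length and are compared between mice, not between genes. The defining markers of neurons, astrocytes, oligodendrocytes and their precursors, microglia and endothelium were detected in every AL mouse, from Cspg4 of precursors at 6.57 to 15.6 CPM to Snap25 of neurons at 3520 to 4670 CPM. Markers of the choroid plexus, a part of the brain, and of the neighbouring pituitary varied more. Ttr of the choroid plexus ranged from 301 to 953 CPM, lowest in young AL mouse 3, and Gh of the pituitary from 0 to 888 CPM.

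Ageing under AL feeding was accompanied by many more increases than decreases. With all mice in the fit, 150 genes were higher in old AL mice, 0.946% of those tested, and 23 were lower, 0.145%. With the 8 AL mice alone in the fit, these counts were 80 and 6. Without young AL mouse 3, 146 genes (0.931% of 15687 tested) were higher and 15 (0.0956%) were lower. The genes called in the same direction in both fits numbered 135, of which 123 were higher and 12 lower in old mice. The 4 old and the 4 young AL mice did not overlap in CPM for 146 of the 150 increased and 18 of the 23 decreased genes, where 2.98% of all tested genes had every old mouse above every young one and 1.58% had every old mouse below. The called genes had been chosen for their values in these same mice, so this separation is a description. The median log2 fold change was 0.83 over the increased and -0.49 over the decreased genes, and 54 increased genes but 4 decreased genes changed by more than 1 log2 unit.

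**Figure D1:**
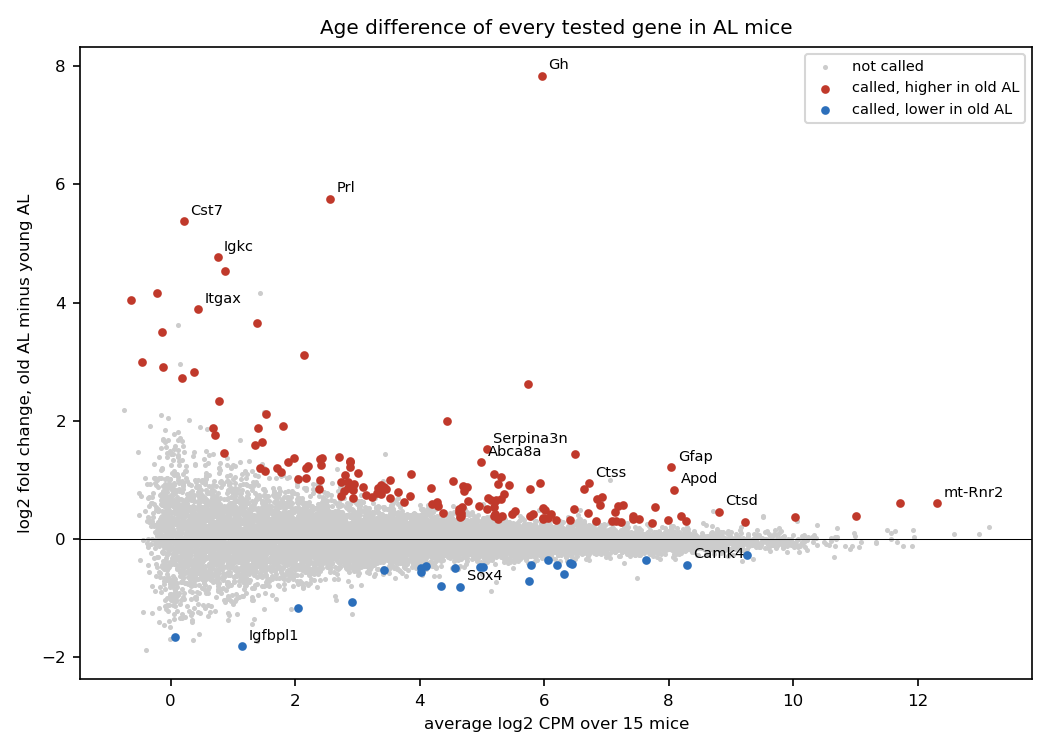
Log2 fold change between old and young AL mice (y axis) against average log2 CPM over 15 mice (x axis) for each of the 15864 tested genes, with called genes (FDR under 0.1) in colour. The 150 called increases reach larger fold changes than the 23 called decreases, and most of the largest lie at low expression.

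The number of calls rested on more than the one library. It fell to 102 (95 higher, 7 lower) without old AL mouse 3, the shallowest library, and the number of decreased genes was 47 without young AL mouse 4 and 14 without old AL mouse 4. Whichever of the 15 mice was left out, 85 genes were called, 81 higher and 4 lower. The libraries had been spread over 3 sequencing lanes, with young and old AL mice in each. No lane held more than 2 AL mice of one age, so that lanes were not tested singly. With lane as a term of the fit 140 genes were higher and 19 lower, and 111 and 8 without young AL mouse 3, the only young AL library of its lane.

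Astrocyte genes held the 2 smallest p-values beyond those of the complement and lysozyme genes. Gfap, the intermediate filament of reactive astrocytes (chromosome 11, 102887336 to 102900912, GRCm38), had 174, 152, 173 and 174 CPM in young AL mice 1 to 4 and 396, 390, 403 and 381 CPM in old AL mice 1 to 4. All old mice were thus above 2 times any young one, and the mean went from 168 ± 10.9 to 393 ± 9.71 CPM (SD, n = 4 each). On the log2 scale it rose by 1.22 (standard error 0.0759, FDR = 1.71e-09). Serpina3n, a secreted serine protease inhibitor of the acute-phase response (chromosome 12, 104406729 to 104414329), had 16.4, 20.3, 19.6 and 16.7 CPM in young and 56.3, 49.9, 43.9 and 59.5 CPM in old mice. Its log2 fold change was 1.52 (standard error 0.114, FDR = 4.63e-08). Young AL mouse 3 lay within the range of the other young mice for Serpina3n, and without it the FDR was 1.21e-07.

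Of the 28 tested genes on a list of reactive astrocyte genes, 8 were increased and none was decreased, with a median log2 fold change of 0.47 beside -0.01 over all tested genes. Without young AL mouse 3 it was 9 of 26. The called genes included Vim, a second intermediate filament (0.69, FDR = 0.000367), A2m, a protease-trapping plasma protein (1.01, FDR = 0.00774), Cryab, a small heat shock protein (0.51, FDR = 0.0195), and S100b, a calcium-binding protein of astrocytes (0.34, FDR = 0.0389). Lcn2, an iron-siderophore-binding protein induced in inflammation, was uneven among the old mice. It had 0.995, 0.656, 12.1 and 8.91 CPM in old AL mice 1 to 4 against 0 to 0.362 CPM in young ones (FDR = 0.00929). Lcn2 passed the filter on low counts only through old mice. On a list of genes for the supportive functions of astrocytes, such as glutamate uptake and water transport, 0 of 28 were called (edgeR, 4 at an unadjusted p under 0.05, 1 with DESeq2). Its smallest p belonged to Glul, glutamine synthetase, with 1510 to 1580 CPM in young and 1720 to 1790 CPM in old mice (log2 fold change 0.19, FDR = 0.142).

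Microglial activation genes showed the largest share of calls of any list, 18 of 31 tested, all increased, with a median log2 fold change of 0.93. Without young AL mouse 3 there were 21 of 31 and a median of 1.04, and over the single mice left out the count ranged from 15 to 21. Tyrobp, the signalling adaptor of Trem2 and related receptors (chromosome 7, 30413788 to 30417577), had 8.80, 9.53, 8.91 and 10.9 CPM in young and 20.1, 18.4, 22.1 and 21.3 CPM in old mice, so that the groups did not overlap. The log2 fold change was 1.10 (standard error 0.132, FDR = 6.26e-05). Trem2, the lipid-sensing receptor itself, rose by 0.84 (FDR = 0.0136), and by 1.07 without young AL mouse 3, which at 12.3 CPM was the highest of the young mice.

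Several of these genes were close to absent from the young brain. Itgax, Cst7 and Clec7a passed the filter on low counts only through old mice. A gene this rare in young mice is thus tested only where old mice are higher, and its ratio and FDR are a description. Itgax, the integrin CD11c of dendritic cells and of activated microglia (chromosome 7, 128129547 to 128150656), had 2, 2, 1 and 2 counts in young and 23, 21, 11 and 29 counts in old mice, a ratio of 16.2 after scaling for depth (95% exact interval 7.54 to 41.6, counting error only) and an FDR of 6.26e-05. Cst7, an inhibitor of lysosomal cathepsins, had 2 counts over all young and 79 over all old mice, a ratio of 53.4 (14.3 to 449, FDR = 0.000112). Clec7a, the beta-glucan receptor Dectin-1, had 0 to 1.21 CPM in young and 4.20 to 6.24 CPM in old mice (FDR = 0.000329). Lag3, an immune checkpoint receptor also made in brain, had 5.42, 4.03, 3.85 and 4.77 CPM in young and 11.6, 11.5, 10 and 11.5 CPM in old mice (log2 fold change 1.32, FDR = 0.000112). Mpeg1, which encodes the pore-forming protein perforin-2 of phagocytes, rose by 0.84 (FDR = 0.000135). Cd68, a phagocyte endosomal glycoprotein, rose by 0.93 (FDR = 0.00193), and Gpnmb, a glycoprotein of lipid-laden phagocytes, by 1.01 (FDR = 0.0207).

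On the list of genes that mark resting, homeostatic microglia 1 of 22 was called with all mice, and the median log2 fold change was 0.17. Without young AL mouse 3 it was 0 of 22 (edgeR, 7 at an unadjusted p under 0.05, and 0 with DESeq2 on the same mice), with a median of 0.185. The called gene, Selplg, a selectin ligand (0.63, FDR = 0.076), also lost its call without young AL mouse 1 or 2, old AL mouse 2, 3 or 4, young EOD mouse 2 or old EOD mouse 4. Most genes of the list were a little higher in old mice: 90.9% had a log2 fold change above 0, against 47.6% of all tested genes. The mean of the list, as log2 CPM centred on each gene's mean over the AL mice, was -0.227 to -0.09 in young and 0.039 to 0.252 in old mice, so that the groups did not overlap. This was not particular to the list: the means of many other lists did not overlap either. For lysosome genes they were -0.127 to -0.056 in young and 0.037 to 0.12 in old mice. Of its defining markers, none of which was called, Tmem119, a microglial membrane protein, had a log2 fold change of 0.32, Csf1r, the receptor for the growth factor that microglia need, 0.18, and Cx3cr1, the fractalkine receptor, 0.17. P2ry12, the purine receptor that guides resting processes, had -0.02. Of leukocyte receptors and their signalling proteins, 9 of 34 were increased (14 of 34 without young AL mouse 3, and 6 to 14 over the single mice left out). They included the inhibitory Fc receptor Fcgr2b (log2 fold change 1.40, FDR = 0.00197), the integrin chain Itgb2 (1.12, FDR = 0.00225), the transcription factor Irf8 (1.23, FDR = 0.00282) and the phosphatase Ptprc (0.96, FDR = 0.00735).

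The lysosome, where phagocytosed material is digested, was represented by 10 increased genes of 60 tested, by 8 without young AL mouse 3 and by 5 without old AL mouse 3. Ctss, a cysteine protease of antigen-presenting cells (chromosome 3, 95526786 to 95556403), had 71.9, 80.6, 69.0 and 70.9 CPM in young and 139, 120, 153 and 152 CPM in old mice (log2 fold change 0.95, standard error 0.0815, FDR = 4.56e-07). Ctsd, the main aspartic protease of lysosomes, had 362 to 402 CPM in young and 508 to 540 CPM in old mice, with a smaller log2 fold change of 0.47 (FDR = 0.000205). Ctsz, a carboxypeptidase, rose by 0.70 (FDR = 0.00105). The median of the list was 0.13.

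Genes of antigen presentation and innate defence were also increased. B2m, the shared light chain of MHC class I molecules (chromosome 2, 122147686 to 122153083), had 93.8, 107, 86.9 and 85.1 CPM in young and 150, 136, 166 and 162 CPM in old mice (log2 fold change 0.72, FDR = 6.58e-05). The class I heavy chains H2-D1 (0.94, FDR = 0.00181) and H2-K1 (0.82, FDR = 0.0029) were the other two called genes of 20 tested for this pathway. They are close relatives of one another, and reads that fit both may have been split or lost in the authors' counting. For MHC class II, 2 of 10 genes were called, Cd74, the invariant chain (1.22, FDR = 0.0494), and Ifi30, a lysosomal thiol reductase (1.21, FDR = 0.0595). This count was 0 without young AL mouse 1, old AL mouse 2 or old AL mouse 3, and 1 without young AL mouse 2, 3 or 4 or old AL mouse 1.

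Of 45 interferon-response genes 6 were increased (8 without young AL mouse 3, 3 without old AL mouse 1), with a median log2 fold change of 0.51. They were Zc3hav1, an antiviral zinc finger protein (0.91, FDR = 0.00299), Ifi27 (0.54, FDR = 0.00474), Bst2, also called tetherin (1.30, FDR = 0.00735), Gbp2, a guanylate-binding protein (1.25, FDR = 0.0207), Ifi204 and Ifitm3. In the complement system beyond the genes C4b, C3 and C1qa, 3 of 20 were called in every fit that left out a mouse. C1qb and C1qc encode the other two chains of C1q, the molecule that opens the classical pathway. C1qb had 32.2, 33.2, 28.1 and 35.6 CPM in young and 50.5, 54.3, 70.7 and 67.6 CPM in old mice (0.91, FDR = 9.9e-05), C1qc rose by 0.88 (FDR = 0.00105), and C3ar1, the receptor for the C3a fragment, by 1.38 (FDR = 0.00914).

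Single genes were called among Toll-like receptors (Tlr2, 1 of 19, log2 fold change 1.16, FDR = 0.0494) and chemokines (Ccl3, 1 of 14). For Toll-like receptors the count was 3 without young AL mouse 3 and 0 without young AL mouse 1 or old AL mouse 1, 3 or 4. For chemokines it was 2 without young AL mouse 1 or young EOD mouse 1 and 0 without young AL mouse 3 or 4, old AL mouse 4, or old EOD mouse 1, 3 or 4. Ccl3, a macrophage chemokine, had 2 counts over all young and 32 over all old AL mice, a ratio of 21.6 (5.52 to 186). It was not tested without young AL mouse 3. Igkc, the constant region of the kappa immunoglobulin chain, is a product of the B-cell lineage. It had 0, 5, 0 and 1 counts in young and 12, 46, 30 and 39 counts in old mice. The ratio was 28.6 (12.8 to 79.4, FDR = 0.000329). Among 8 tested genes of lymphocytes Igkc was called together with Ly9, a lymphocyte surface receptor of the SLAM family. Ly9 had 0 to 0.458 CPM in young and 1.34 to 2.46 CPM in old mice (FDR = 0.00586). Like Itgax, Cst7 and Clec7a, the genes Ccl3, Igkc and Ly9 passed the filter on low counts only through old mice.

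The interferon-stimulated response element, a short promoter motif to which interferon-activated transcription factors bind, was looked for as GAAANNGAAA (N, any base) on both strands of the 250 bases before the start of transcription, with sequences from RefSeq on GRCm38.p6. Promoters were matched for 101 of the 150 increased genes, and 6 of these, or 5.94%, held the motif, where 285 of 11681 promoters of tested genes, or 2.44%, did. On the whole interferon list it was 13 of 35 promoters, called or not. The binding motif of PU.1 (GAGGAAGT), a transcription factor of microglia and other myeloid cells, was in 2 of the 101 promoters, 1.98% against 2.17% of all. A match is a description of the sequence and no evidence of a site in use. The windows below show the interferon motif in capitals in the 6 increased genes, since they join genes from 4 of the lists above: the class I light chain, the protease Ctss, 2 interferon-response genes and 2 subunits of the phagocyte NADPH oxidase (Cybb, which had 3 matches, and Ncf1).
B2m (chr2:122147538-122147567, plus strand): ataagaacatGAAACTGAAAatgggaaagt
Ctss (chr3:95526755-95526784, plus strand): gtctttaaatGAAACCGAAAtgaaagttca
Gbp2 (chr3:142620594-142620623, minus strand): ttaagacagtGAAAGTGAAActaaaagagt
Bst2 (chr8:71537583-71537612, minus strand, 1 of 2 overlapping matches): ggcattccagGAAAATGAAActgaaaggct
Ncf1 (chr5:134229688-134229717, minus strand): aaaattctcaGAAAGTGAAAgactaagtct
Cybb (chrX:9469334-9469363, minus strand): tctgataataGAAAAGGAAAcctattgccc

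**Figure D2:**
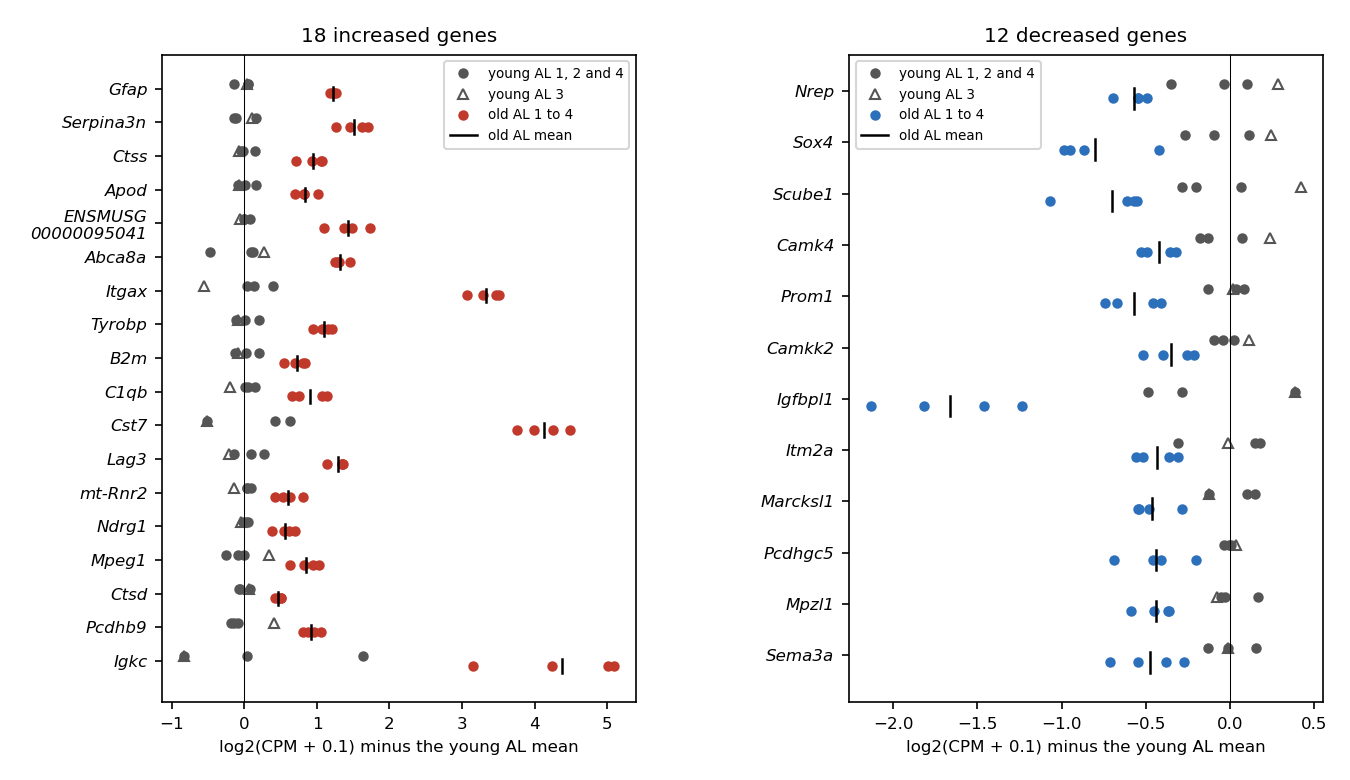
Expression of the 18 increased and 12 decreased genes with the smallest p-values among those called with and without young AL mouse 3, as log2(CPM + 0.1) minus the mean of the 4 young AL mice, with 1 point per mouse and a bar at the old AL mean. Every old mouse lies above every young mouse in the left panel, and in the right panel young AL mouse 3 (triangle) is the highest young mouse for Nrep, Sox4, Scube1, Camk4, Camkk2 and Pcdhgc5.

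Genes of mature oligodendrocytes formed the second largest group of increases, with 15 of 44 called and none decreased (13 without young AL mouse 3, 11 to 16 over the single mice left out). The median log2 fold change of this list was 0.24. Apod, a secreted lipid carrier (chromosome 16, 31296192 to 31314808), had 216, 182, 185 and 195 CPM in young and 344, 344, 391 and 314 CPM in old mice (0.84, standard error 0.0766, FDR = 1.12e-06). Ndrg1, a stress-responsive protein of myelinating cells, rose by 0.56 (FDR = 0.000129), Pmp22, a membrane protein named for peripheral myelin, by 0.65 (FDR = 0.000534) and Gatm, which makes the creatine precursor, by 0.54 (FDR = 0.00116). Further called genes were Trf, the iron carrier transferrin (0.64), Car2, a carbonic anhydrase (0.33), Klk6, a myelin-associated protease (0.76), and Aspa, which cleaves N-acetylaspartate (0.43).

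Among structural proteins of myelin, Mbp, myelin basic protein, had 2010, 1720, 1510 and 1980 CPM in young and 2060, 2350, 2730 and 2300 CPM in old mice (0.39, FDR = 0.0515), but without young AL mouse 3, the lowest of the young mice, the FDR was 0.156. Mog, a glycoprotein of the outer myelin surface, ranged from 84.3 to 108 CPM in young and from 81.1 to 91.0 CPM in old mice (-0.12, FDR = 0.676). No gene of 25 on the list of precursors and newly formed oligodendrocytes was called by edgeR (6 at an unadjusted p under 0.05). The smallest p-values there belonged to Bcas1, a marker of early myelinating cells (0.28, FDR = 0.145), and Gpr17, a receptor of committed precursors (-0.49, FDR = 0.161), and both passed with DESeq2.

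Lipid handling added Abca8a, a lipid transporter (chromosome 11, 110025634 to 110095978), at 18.2, 12.3, 20.6 and 18.5 CPM in young and 46.9, 41.5, 40.7 and 42.3 CPM in old mice (1.30, standard error 0.137, FDR = 9.52e-06). Acer2, a Golgi ceramidase (0.88, FDR = 0.0162), and Adipor2, an adiponectin receptor (0.57, FDR = 0.0508), were the other two called of 24. Fth1, the ferritin heavy chain that stores iron, was the 1 called gene of 18 for iron and metal handling (0.37, FDR = 0.0278), where 0 were called without old AL mouse 3 (Fth1, FDR = 0.135) and 2 without young AL mouse 4 or young EOD mouse 3. Of 38 endothelial and pericyte genes 1 was increased and 1 decreased (4 were called without young AL mouse 3 or young AL mouse 4, and 1 without young AL mouse 1 or 2 or old AL mouse 2 or 4). The increased gene Vwf, which tethers platelets to the vessel wall, rose from 13.2 ± 1.31 to 24.3 ± 4.57 CPM (SD, n = 4 each, 0.87, FDR = 0.00282). On the ependymal and ciliary list 3 of 41 genes were increased, Erich5, Tppp3 and Spag6, and 1 without young AL mouse 1 or old AL mouse 3. Erich5, with 0 to 0.502 CPM in young and 1.32 to 2.27 CPM in old AL mice, passed the filter on low counts only through old mice. Tppp3, a tubulin-binding protein, lost its call without young AL mouse 3 (FDR = 0.102).

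**Figure D3:**
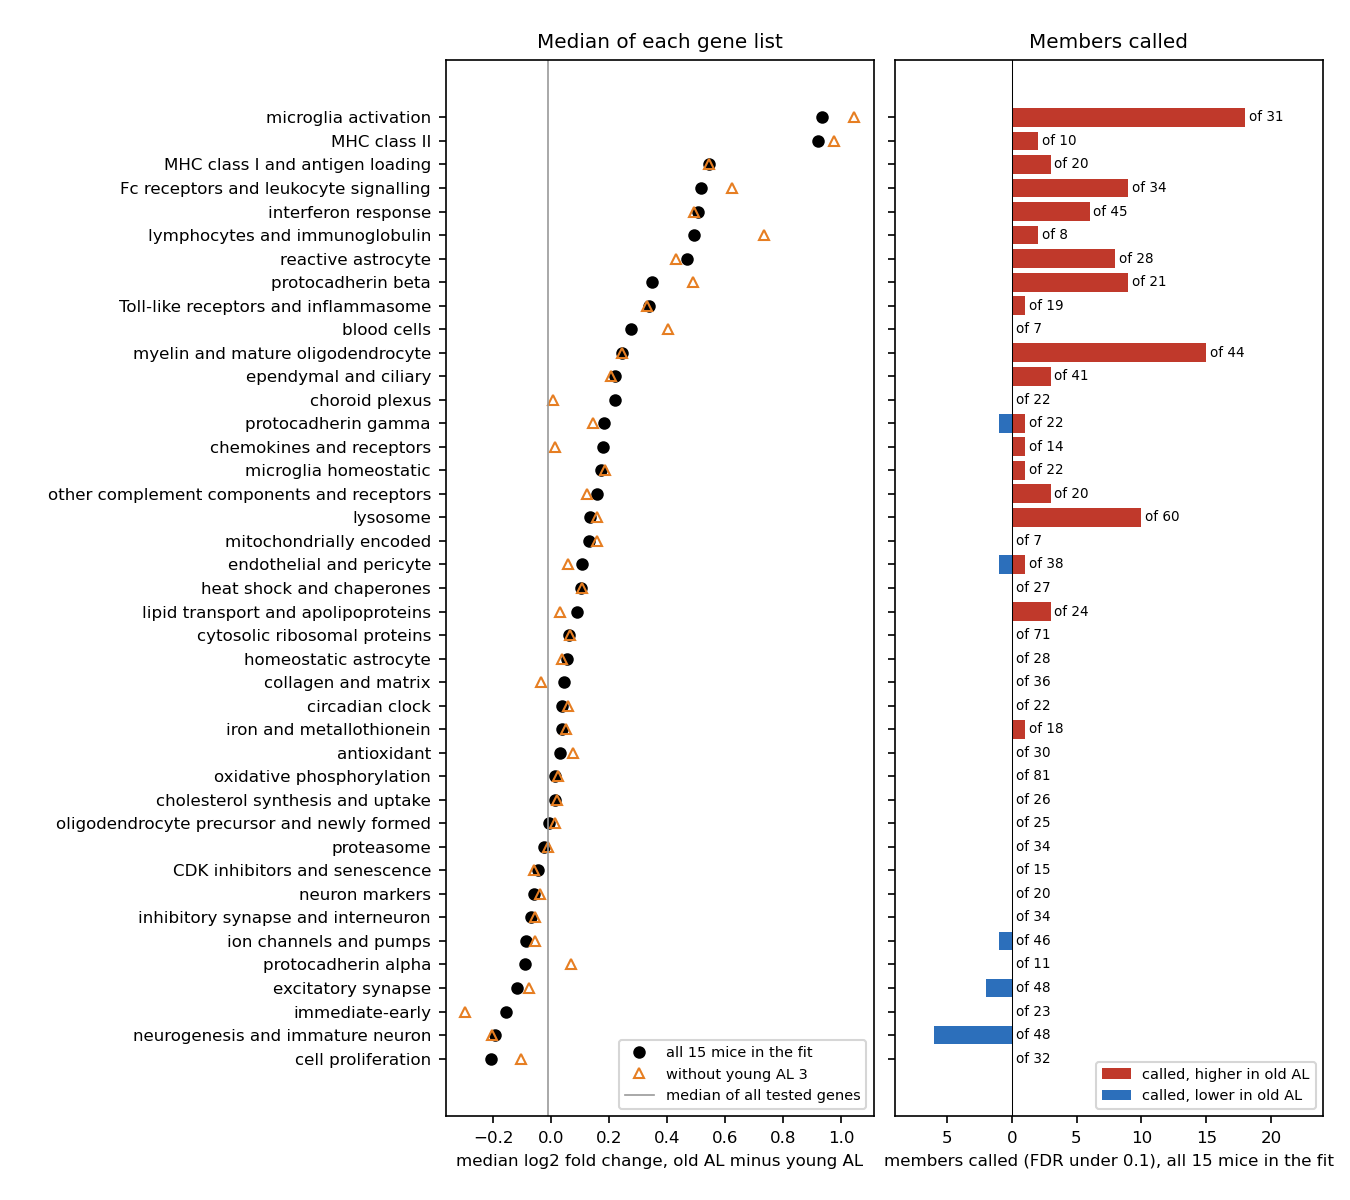
Left, median log2 fold change between old and young AL mice for 41 gene lists, with all mice in the fit (circles) and without young AL mouse 3 (triangles), beside the median of all tested genes (line). Right, the number of tested members called higher (right of 0) or lower (left of 0). Microglial activation genes lead both panels, and the list of neurogenesis genes has the most decreases, 6 of 48 (the pituitary list, 2 of 4 called with a median of 3.96, is off the scale and left out).

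Clustered protocadherins, cell-surface proteins through which neurons recognise their own branches, were the most frequent neuronal genes among the increases. Of 21 tested genes of the beta cluster on chromosome 18, 9 were increased and none decreased, in the fits with and without young AL mouse 3 alike (7 to 9 over the single mice left out). Pcdhb9 (chromosome 18, 37400855 to 37403909) had 15.3, 14.9, 22.4 and 15.9 CPM in young and 31.2, 32.9, 29.5 and 35.1 CPM in old mice, the third young mouse being the highest of its group. Its log2 fold change was 0.91 (standard error 0.127, FDR = 0.000329) with and 1.08 (FDR = 5.72e-06) without that mouse. Pcdhb6 rose by 1.09 (FDR = 0.00552), Pcdhb3 by 0.87 (FDR = 0.00586) and Pcdhb13 by 0.77 (FDR = 0.00914).

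The increases lay at one end of the cluster. In the order along the chromosome, the first 13 tested beta genes, from Pcdhb2 to Pcdhb14, held all 9 calls, with a median log2 fold change of 0.77 and a range of 0.05 to 1.35. The last 8, from Pcdhb15 to Pcdhb22, held 0 calls with edgeR (1 at an unadjusted p under 0.05, and 1 call with DESeq2), with a median of -0.06 and a range of -0.50 to 0.05. This division was drawn after the values had been seen. In EOD mice the medians of the same blocks were 0.52 and -0.19. Of 22 tested gamma genes, Pcdhga2 was increased (0.80, FDR = 0.00545) and Pcdhgc5, at the far end, was decreased from 98.9, 102, 104 and 101 CPM to 73.7, 88.2, 62.8 and 76.2 CPM (-0.43, FDR = 0.0389), and 1 of the 2 calls remained without old AL mouse 1 or 3. None of the 11 alpha genes was called with edgeR or DESeq2 (2 at an unadjusted p under 0.05). Beta genes resemble one another in sequence, so that reads common to several may have been lost at the mapping quality the authors required, and the alpha and the gamma genes each share constant exons.

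**Figure D4:**
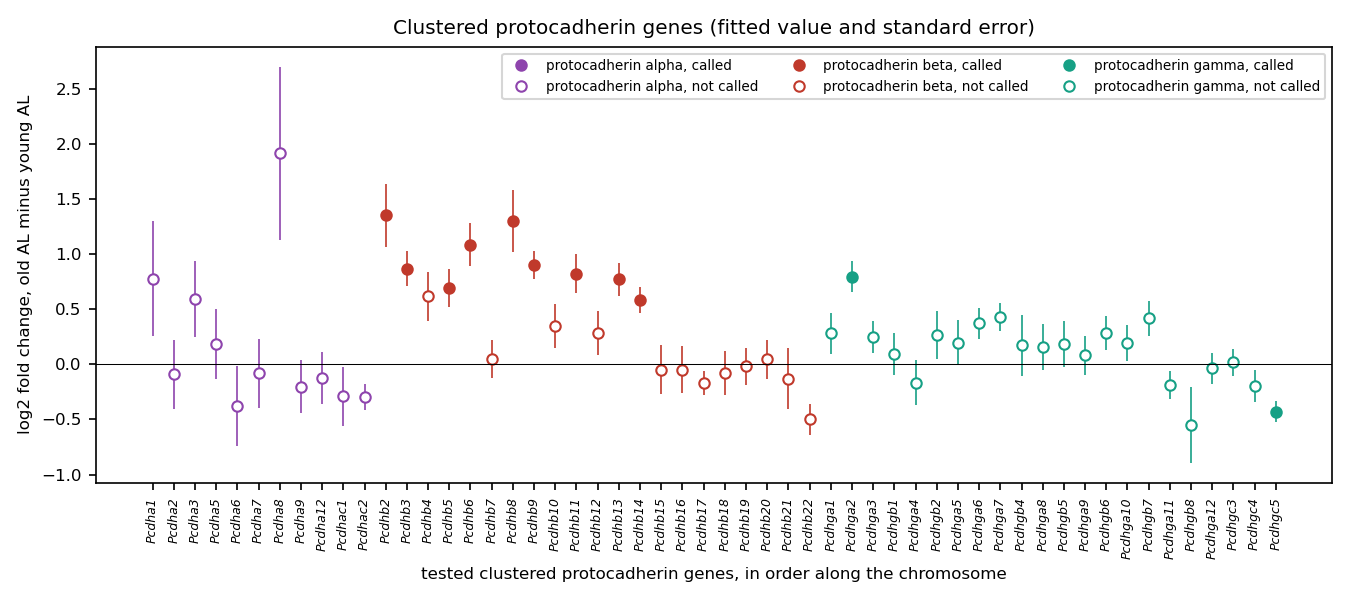
Log2 fold change between old and young AL mice (y axis, bars give the standard error) for the tested clustered protocadherin genes in their order along the chromosome (x axis), with called genes filled. The 9 called beta genes lie between Pcdhb2 and Pcdhb14, and none lies from Pcdhb15 on.

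Both mitochondrial ribosomal RNAs were higher in old mice. mt-Rnr2, the large subunit RNA, had 4030, 3870, 3430 and 3870 CPM in young and 6630, 5070, 5880 and 5510 CPM in old mice (0.60, standard error 0.0769, FDR = 0.000112), and mt-Rnr1, the small subunit RNA, rose by 0.61 (FDR = 0.000617). Of 13 listed messenger RNA genes of the mitochondrial genome only 7 were tested, and the values here do not cover the rest. Among those tested 0 were called with edgeR (1 at an unadjusted p under 0.05, 0 with DESeq2). The median of the 7 tested was 0.13. One of them, mt-Co1, a subunit of cytochrome oxidase, had 7540 to 9100 CPM in young and 8560 to 10500 CPM in old mice (0.20, FDR = 0.363). None of 81 nuclear genes of oxidative phosphorylation was called with either tool (2 at an unadjusted p under 0.05). ENSMUSG00000095041, a gene with no symbol on the unplaced scaffold JH584304.1, had 52.5, 49.8, 47.7 and 49.7 CPM in young and 107, 166, 140 and 130 CPM in old mice (1.44, FDR = 2.95e-06). Unplaced scaffolds can hold copies of other genes, and whether its reads come from such a copy was not tested.

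The largest group of decreases was that of neurogenesis and immature neurons, with 6 of 48 decreased and none increased, and 7 without young AL mouse 3, but 3 without old AL mouse 3 or old AL mouse 4. Its median log2 fold change was -0.20, and 18.8% of its genes had a positive value against 47.6% of all tested genes. Nrep, a protein of growing and regenerating axons (chromosome 18, 33437019 to 33464029), had 92.8, 102, 116 and 74.5 CPM in young and 58.6, 65.0, 65.1 and 67.6 CPM in old mice (-0.59, standard error 0.114, FDR = 0.0101, and 0.0389 without young AL mouse 3, the highest of the young mice). Sox4, a transcription factor of new neurons, had 34.8, 26.7, 38.1 and 30.1 CPM in young and 16.2, 24.0, 17.6 and 16.6 CPM in old mice (-0.80, FDR = 0.0147). The groups did not overlap for either gene.

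Igfbpl1, a secreted protein of neuroblasts, had 2.05, 2.38, 3.85 and 3.85 CPM in young and 0.995, 1.18, 0.757 and 0.588 CPM in old mice, the largest decrease of all called genes (-1.81, standard error 0.406, FDR = 0.034). Marcksl1, an actin-regulating protein of growing neurites (-0.47, FDR = 0.0385), Prom1, the stem-cell surface protein CD133 (-0.56, FDR = 0.0217), and Sema3a, a repulsive axon guidance cue (-0.47, FDR = 0.066), were the other called members. Of 32 cell proliferation genes 0 were called with edgeR or DESeq2, although 7 had an unadjusted p under 0.05, all of them lower in old mice. Cenpf, a kinetochore protein of dividing cells, had 1.28 to 1.92 CPM in young and 0.373 to 0.946 CPM in old mice (-1.38, FDR = 0.161).

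Decreases were called for 2 enzymes of one calcium-dependent kinase cascade, known from neurons. Camkk2 encodes a kinase that activates Camk4, and Camk4 a nuclear kinase that acts on transcription. Camk4 had 399, 335, 447 and 347 CPM in young and 304, 263, 270 and 296 CPM in old mice (-0.43, FDR = 0.0211, 0.0865 without young AL mouse 3). Camkk2 had 216, 235, 250 and 224 CPM in young and 161, 175, 193 and 199 CPM in old mice (-0.35, FDR = 0.0289, 0.0995 without that mouse). They were the 2 called genes of 48 for excitatory synapses, and 1 remained without old AL mouse 1, 2 or 3. The list's median was -0.12. Of 46 genes for ion channels and pumps, Atp2b2, a calcium pump of the plasma membrane, was called with all mice (-0.27, FDR = 0.066) but not without young AL mouse 1, 3 or 4 or any one of the 4 old AL mice (FDR of 0.114 to 0.218). Pan-neuronal markers, 20 genes, held 0 calls with edgeR or DESeq2 (0 at an unadjusted p under 0.05) and had a median of -0.06.

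Outside the lists, Scube1, a secreted and membrane-bound glycoprotein of vessels and platelets, fell from 73.9, 58.1, 94.9 and 61.4 CPM to 33.6, 48.2, 46.3 and 47.6 CPM (-0.72, FDR = 0.0175), and Mpzl1, a cell-surface glycoprotein, by 0.45 on the log2 scale (FDR = 0.0507). Itm2a, a membrane protein of brain endothelium and the decreased gene of that list, had 67.9 to 95.2 CPM in young and 57.2 to 68.0 CPM in old mice, so that the groups overlapped (-0.45, FDR = 0.036).

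Young AL mouse 3 was the highest of the 4 young mice for 13 of the 23 decreased genes. For the 150 increased ones it was the lowest for 77 and the highest for 26. How often it was the extreme young mouse over all tested genes was not counted, so these counts are a description. Without it 11 of the decreased and 27 of the increased genes lost their call. Of the 38 lost calls 2 belonged to genes that were not tested without this mouse, and the other 36 kept their direction with an FDR of at most 0.273. Besides Ccl3 and Tppp3, Ezr, a linker of membrane and actin, had the smallest p among them (0.36, FDR = 0.0449, then 0.115). Without this mouse 26 genes were newly called, 23 of them increased, including Itgam, the integrin CD11b of microglia (0.53, FDR = 0.0119, against 0.525 with it), and Ly86, a partner of a Toll-like receptor relative (0.85, FDR = 0.000763, against 0.108). The decreased gene Apcdd1, a Wnt inhibitor of brain vessels (-0.58, FDR = 0.0148), was also among them.

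The calls of 2 genes followed 1 mouse. Gh, growth hormone, had 4.70, 0, 0.227 and 0.0837 CPM in young and 0.124, 0.394, 14.9 and 888 CPM in old AL mice, and Prl, prolactin, had 72.5 CPM in old AL mouse 4 and at most 1.33 CPM in the other AL mice. Neither passed the filter on low counts without old AL mouse 4, old AL mouse 3 or young AL mouse 1, and Prl alone lost its call without young AL mouse 2, 3 or 4 or any one of the 4 old EOD mice. The summed level of 12 pituitary genes was 1050 CPM in old AL mouse 4, 21.5 in old AL mouse 3 and 1.37 to 9.26 in the other 6 AL mice, and Cga, the shared chain of pituitary glycoprotein hormones, was at 49.7 CPM in that mouse and at most 0.962 CPM in the rest. The part of this tissue in other results was not tested, and without that mouse 144 genes were called.

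In 19 of the 42 lists no gene was called. Together they held 551 tested genes, of which 53 had an unadjusted p under 0.05 with edgeR, where 9.52% of all tested genes did, and DESeq2 called 7. Without young AL mouse 3 edgeR called Pvalb, the calcium buffer of fast-spiking interneurons (0.42, FDR = 0.0538, against 0.362 with it). Besides those described, they covered collagen and matrix (36 genes, median log2 fold change 0.04), choroid plexus (22, 0.22, and 0.01 without young AL mouse 3), inhibitory synapses (34, -0.07), immediate-early genes (23, -0.16), the circadian clock (22, 0.04), cholesterol synthesis (26, 0.01), heat shock proteins (27, 0.10), antioxidant genes (30, 0.03), blood cells (7, 0.27), inhibitors of the cell cycle and other senescence genes (15, -0.05), cytosolic ribosomal proteins (71, 0.06) and the proteasome (34, -0.03). The sum of 13 blood cell genes was 30 to 53.0 CPM in young and 45.7 to 73.3 CPM in old AL mice, and that of 23 choroid plexus genes was 514 CPM in young AL mouse 3 against 783 to 1330 CPM in the other AL mice.

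No difference between long and short genes was detected. The median of the 10% longest tested genes (over 133004 bases) minus that of the 10% shortest (up to 3529 bases), on the centred log2 CPM scale, was 0.13, -0.15, 0.12 and -0.05 in young and 0.09, 0.02, -0.12 and -0.13 in old AL mice. The mean of old minus that of young mice was -0.0489 (exact permutation test, two-sided, p = 0.571, where 0.0286 is the smallest p that 4 against 4 mice allow). Over the single AL mice left out, it ranged from -0.1017 (without young AL mouse 2) to -0.014 (without old AL mouse 4).

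The genes called in AL mice were then looked up in EOD mice, whose old and young groups share no mouse with the AL groups. In EOD mice 0.29% of tested genes were called, 46 in all. Of the 150 genes increased in AL mice 144 were also higher in old EOD mice and 36 were called there, and of the 23 decreased genes 21 were lower and 1, Nrep, was called. How many of all tested genes were higher in old EOD mice was not counted, and their median log2 fold change there rounded to 0. Genes that passed the filter on low counts only through old mice, such as Cst7 and Ly9, are among the 150. The fold changes in EOD mice were smaller for 134 of the increased and 21 of the decreased genes, with medians of 0.47 and -0.31. The genes had been chosen for their AL values, so these sizes are a description. The difference of the age effect between the diets was called for no gene (edgeR, 362 genes at an unadjusted p under 0.05, and 407 without young AL mouse 3, and 0 calls with DESeq2, 312 at an unadjusted p under 0.05).

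Some genes called in AL mice had a log2 fold change near 0 in EOD mice. Plekhf1, a phosphoinositide-binding endosomal protein chosen here after its values had been seen, rose by 1.91 in AL mice and had -0.02 in EOD mice (difference -1.93, standard error 0.483, unadjusted p = 0.000661, FDR = 1). Erich5 had 2.73 and 0.03 (unadjusted p = 0.00169), and Vwf had 0.87 and 0.16 (unadjusted p = 0.00357). Because Erich5 passed the filter on low counts only through old mice, its values are a description. Over all tested genes the smallest p for this difference belonged to Gm15441, a non-coding transcript, with 0.63 in AL and -0.59 in EOD mice (unadjusted p = 0.000288, FDR = 1), and it was not called for age in AL mice (FDR = 0.198). None of these differences passed the adjustment.

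**Figure D5:**
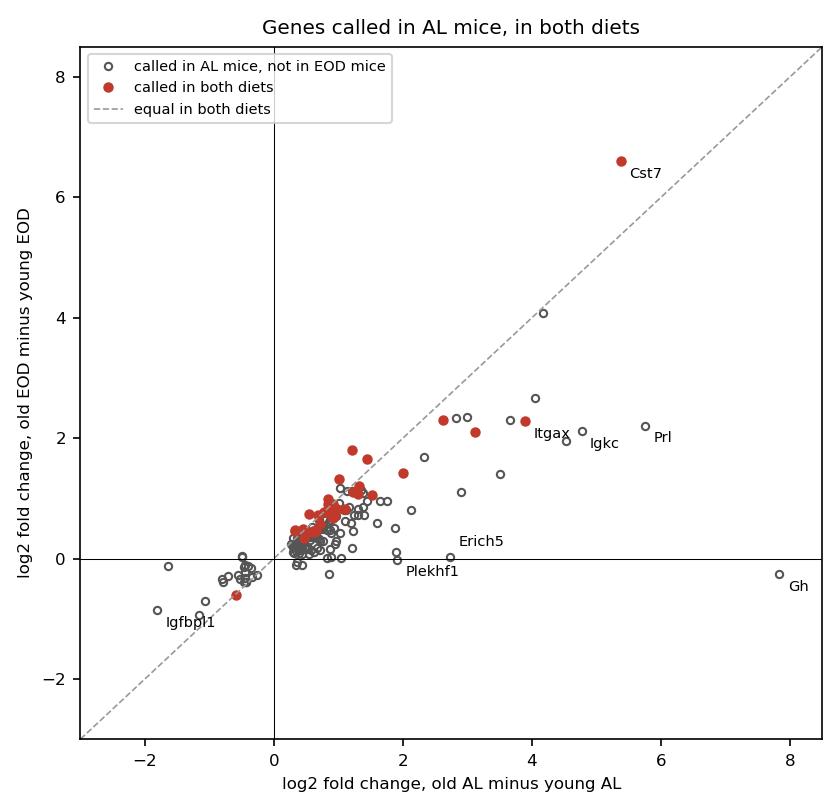
Age difference (log2 fold change) in EOD mice on the y axis against that in AL mice on the x axis for the 173 genes called in AL mice, with genes called in both diets filled and a dashed line where both are equal. Most points lie in the upper right quadrant below the line, and Gh, Erich5 and Plekhf1 lie near 0 on the y axis.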

How the data were processed

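RNA of 15 whole brains was sequenced, 1 library per mouse. The authors used STAR (GRCm38) and then featureCounts 1.5.0-p1 on the gene models of Ensembl release 79, counting primary, reverse-stranded alignments of mapping quality 5 or more, and the deposited values are raw counts per gene. Samples were grouped by the labels. The rest was computed here: edgeR 4.0.16 in R 4.3.3 (TMM, filterByExpr, quasi-likelihood test over 4 group means, Benjamini-Hochberg, FDR under 0.1). Standard errors come from the size of the effect and its F statistic, log2 CPM used a prior count of 2, and a ratio of counts carries an exact interval for counting error only. The authors kept mice 4 to a cage when the study began. Which of the sequenced mice shared a cage or were littermates is not given in the sources used here.

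Genes named are, apart from C4b, Lyz2, C3, C1qa and Il33, the 18 increased and 12 decreased genes of smallest p called with and without young AL mouse 3, up to 4 called genes of each of 42 gene lists (the 2 of smallest p where none was called), the gene of smallest p for the diet difference and 3 lost calls. Some genes that met the rule are not reported here. Other genes were named after their values had been seen, among them those given to fill out a list. Comparison, lists and rule were chosen with earlier results of these data known. The edgeR steps were tested on simulated data with a single spread for all genes and no outlying library. Changes were set only in genes above a floor of expression. The simulation thus does not cover genes of few counts or a library like that of young AL mouse 3. The 12 within-group pairs of AL mice differed beyond sampling noise (chi-square per degree of freedom 4.56 to 16.6). Alternatives were another scaling, filter, threshold or tool (DESeq2 1.42.0, limma 3.58.1), a lane or replicate term, AL mice alone, and leaving out each mouse. DESeq2 and the replicate block on 14 mice were added after seeing the data.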

Additional observations from a re-analysis of the deposited data

Results flagged for a closer look

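In groups of 4 mice, single mice lay far from the other 3 for 13 of 218 values looked at (the gap to the nearest mouse divided by the group's range above 0.829), and chance alone gives about 5% of groups. The count was close to that share, so the mice named here are a description. Young AL mouse 3 was set apart for Pcdhb9 (0.847, 22.4 CPM) and Nfe2l2 (0.893, 15.6 CPM). Young AL mouse 2 was set apart for Gfap (0.961, 152 CPM), C3ar1 (0.842, 1.65 CPM) and Ccl3 (1, the 1 young mouse with any count), and young AL mouse 4 for Gpr17 (0.899, 57.2 CPM) and Tppp3 (0.915, 39.9 CPM). Among old mice, mouse 3 was set apart for Lag3 (0.97, 10 CPM), Irf8 (0.853, 8.70 CPM), Ccl3 (0.849, 0.567 CPM) and H2-K1 (0.863, 41.4 CPM), and mouse 1 for Scube1 (0.893, 33.6 CPM) and Ezr (0.884, 69.3 CPM). No cause was tested for any of them.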

How the results depend on the processing

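Of 68 called genes picked by the naming rule, 44 stayed past the threshold in every alternative that tested them, of up to 27 run. Alternatives in which a gene was not tested are left out: Ccl3 was tested in 14, and Itgax, Cst7, Igkc, Ly9 and Erich5 in 26. None of the 106 genes the rule picked changed direction. Over the mice left out one at a time, calls ranged from 102 to 221 (95 to 174 higher, 7 to 47 lower in old). The calls were 86 (80 higher, 6 lower) when the fit held the 8 AL mice alone, 444 (312 and 132) with every gene of at least 1 count and 266 (215 and 51) with DESeq2. Decreased genes numbered 11 at an FDR of 0.05, 6 in the 7 AL mice other than the third young one, 15 with voom quality weights and 8 with a lane term on 14 mice. Replicate numbers did not pair the mice (correlation of deviations of same-numbered AL mice -0.059 to 0.112, and not every mouse correlated best with its own number): with replicate number as a block 155 genes were called (15 lower), and 130 (7 lower) on 14 mice. The difference between the diets was called for 26 genes with every gene of at least 1 count and for 0 otherwise. The share of called genes with the same direction in EOD mice was 95.4%, between 92% and 98.1% over the mice left out, 86.9% with every gene of at least 1 count, 91.8% with a lane term and 91.6% with that term on 14 mice. Shallow libraries and genes of few counts limit precision.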
